A study of Mus musculus with 9 samples.

Results

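The genes described here encode the proteins of the cytosolic ribosome. They were chosen by symbol (Rps or Rpl with a number and at most a final a, x or l, together with Rplp0, Rplp1, Rplp2 and Rpsa), and 80 of the 20591 genes in the count table met this rule, 32 of the small subunit and 48 of the large subunit. Every one of the 80 passed the filter on low counts. The libraries are polyA RNA-seq of lysed substantia nigra. All mice were wild type (C57BL/6) and sham-operated, and they were 12 weeks old when the diets were assigned. The substantia nigra is the midbrain region whose dopaminergic neurons are lost in Parkinson's disease. Of the 9 libraries, 3 came from the group kept on intermittent fasting for 1 week, which held 3 fasts of 24 hours, 3 came from the group given a single fast of 24 hours, called 1 day below, and 3 came from the group fed ad libitum for 1 week. Each fast began 2 hours before lights off, and mice fed ad libitum were moved between cages in the same way. Whether each library is a separate animal is not stated, and p-values therefore rest on a spread between libraries that may be partly technical. The sources used here do not give the time between the last fast and tissue collection.

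Ribosomal proteins fold around the ribosomal RNAs to form the subunit that reads the mRNA and the subunit that joins amino acids. Their mRNAs are among the most abundant of a cell and nearly all begin with a run of pyrimidines, the terminal oligopyrimidine (TOP) tract. Through this tract the nutrient-sensing kinase complex mTORC1 sets how well they are translated, so that a fast can lower the making of ribosomal proteins with little change in the amount of their mRNA. RNA-seq of lysate measures that amount, relative to the other RNAs of the library, and not translation. The tract was looked for in the gene set. RefSeq promoters (build GRCm38.p6) were at hand for 59 of the 80 genes, with 71 annotated starts. A C at the annotated start followed by 4 bases that are each C or T was present in 14 of the 71 (19.7%), against 823 of 32851 starts of all genes (2.51%). A C followed by 7 such bases, on the strand of the gene and within 25 bases of either side of the start, was present in 33 of 71 (46.5%) against 5081 of 32851 (15.5%). These are matches of letters, not mapped mRNA starts.

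The tract is shown for 4 genes. Each window runs from 50 bases before the annotated start to 20 bases after it, 5′ to 3′ on the strand of the gene. The pyrimidine run at or near the start is in capitals, marked from its first C. The windows are chr4:86857348-86857417 (minus strand) for Rps6, chr7:141447601-141447670 (plus strand) for Rplp2, chr11:114668530-114668599 (plus strand) for Rpl38 and chr7:45128726-45128795 (minus strand) for Rpl13a.
Rps6: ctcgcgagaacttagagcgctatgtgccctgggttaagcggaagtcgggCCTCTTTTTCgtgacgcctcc
Rplp2: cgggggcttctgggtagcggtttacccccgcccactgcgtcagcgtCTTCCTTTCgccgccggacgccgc
Rpl38: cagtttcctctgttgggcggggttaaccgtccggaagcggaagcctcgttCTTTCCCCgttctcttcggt
Rpl13a: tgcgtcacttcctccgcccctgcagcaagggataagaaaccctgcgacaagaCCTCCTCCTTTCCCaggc
Counted from their first C, the 4 runs are 10, 9, 8 and 14 bases long in this order. In Rplp2 and Rpl38 a T also lies directly before the capitals, so the unbroken pyrimidine stretch starts earlier there. The marked runs begin 1 base before the annotated start in Rps6, 4 bases before it in Rplp2 and at the start in Rpl38. In Rpl13a the run begins at base 3, with the start counted as 1, and does not include the start. None of the 4 genes passed the test in any comparison (below).

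Library totals ranged from 36109995 to 54248856 counts, and the 80 genes took between 0.776% and 0.966% of them. Replicate 2 of the 1 week group and replicate 2 of the 1 day group stood apart from the other 7 libraries. The values they move most are also given without both of them. Their quality weights in limma's voom were 0.507 and 0.213, against 0.972 to 1.93 in the other 7. Counts of mitochondrial protein-coding genes made up 1.75% and 1.84% of these libraries, against 2.56% to 3.92% in the others. Summed levels of 6 nuclear-retained RNAs were 11800 and 15390 CPM there, against 9323 to 10910 CPM. Markers of tissue around the substantia nigra differed in single libraries: 4 cortical neuron markers summed to 524 CPM in 1 week replicate 3 against 8.09 to 59.3 CPM elsewhere, 4 red blood cell markers to 1482 CPM in the same library against 278 to 614 CPM elsewhere, and 4 choroid plexus markers to 373 CPM in ad libitum replicate 3 against 13.6 to 51.1 CPM elsewhere. The 4 markers of dopaminergic neurons were present in every library, with sums between 456 and 1282 CPM. The part that any of these has in the results below was not tested.

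Levels are CPM, counts scaled to the library's size by edgeR's TMM factors. Per kilobase of transcript, the scale on which different genes can be compared, the median level of the 80 genes over all 9 libraries was 139 CPM per kb, with quartiles of 96.5 and 188. Small subunit genes had a median of 144 CPM per kb and large subunit genes of 138 CPM per kb. The highest were Rpl41, which encodes the smallest ribosomal protein, at 398 CPM per kb, Rps14, at 346 CPM per kb, and Rplp1, a protein of the stalk that recruits elongation factors, at 329 CPM per kb. There were 9 genes below 30 CPM per kb, including Rps20, for which the transcript picked was unusually long (below). Among them Rpl3l, a paralog of Rpl3 known from striated muscle, was the lowest at 0.262 CPM per kb with 8 to 31 counts in a library, followed by Rpl32l at 0.793 CPM per kb, which GENCODE M21 lists as a pseudogene, and Rpl12 at 5.91 CPM per kb. The low level of Rpl12, like those of Rpl5, Rps27 and Rpl10, goes with counts that are listed under near-identical copies of the gene (below).

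The first question was whether the amount of ribosomal protein mRNA, relative to the other RNAs of a library, changed with fasting. Summed over the 80 genes, the level was 9446, 7638 and 8467 CPM in replicates 1 to 3 of the 1 week group, 8287, 8206 and 9371 CPM in the 1 day group, and 8935, 9013 and 8141 CPM in the ad libitum group. The group values were 8517 ± 905 CPM after 1 week, 8621 ± 651 CPM after 1 day and 8696 ± 482 CPM under ad libitum feeding (SD, n = 3 each). The 3 groups overlapped, and their means differed by less than the spread within each group. In bulk tissue, fewer cells of a type and less RNA per cell cannot be told apart.

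No ribosomal protein gene passed edgeR's quasi-likelihood test in any of the 3 comparisons. After 1 week 0 of 80 were called against ad libitum, where 0.307% of all 20535 genes tested were called (63 genes, 0.253% higher and 0.0536% lower). After 1 day 0 of 80 were called, where 0.0584% of all genes were (12 genes, 0.0536% higher and 0.00487% lower), and between 1 week and 1 day 0 of 80 were called, as were 0 of all genes. The smallest adjusted p of any of the 80 genes was 0.616 after 1 week, 0.533 after 1 day and 0.853 between 1 week and 1 day (edgeR, Benjamini-Hochberg over all genes). At an unadjusted p below 0.05 there were 0 of 80 after 1 week (11.2% of all genes), 1 of 80 after 1 day (9.27%) and 0 of 80 between 1 week and 1 day (5.22%). DESeq2 also called 0 of the 80 in each comparison, where it called 2.26%, 0.896% and 0.0146% of all genes in this order, and 0, 2 and 0 of the 80 had an unadjusted p below 0.05, against 11.3%, 9.99% and 5.79% of all genes. Limma's voom with quality weights called 0 of the 80 in each, against 1.44%, 0.453% and 0% of all genes, and 0 of the 80 had an unadjusted p below 0.05, against 16.6%, 11.2% and 5.45% of all genes.

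The fold changes were small and centred near 0. After 1 week against ad libitum the median log2 fold change of the 80 genes was -0.053, with 32 above 0 and 48 below, and the extremes were -0.41 and 0.54. After 1 day against ad libitum the median was -0.088, with 30 above 0 and 50 below and extremes of -0.73 and 0.80. Between 1 week and 1 day the median was 0.0022, with 40 on each side and extremes of -0.40 and 0.73. The corresponding medians over all genes tested were -0.0013, 4.1e-04 and -8.4e-04. For 50 of the 80 genes after 1 week, 42 after 1 day and 54 between 1 week and 1 day, the 95% interval of the fold change lay within 1.5-fold of no change, and for 72, 65 and 71 it lay within 2-fold. Larger changes are thus outside the intervals of most of these genes, while changes under 1.5-fold were not detectable for many. The comparisons with ad libitum share its 3 libraries.

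**Figure D1:**
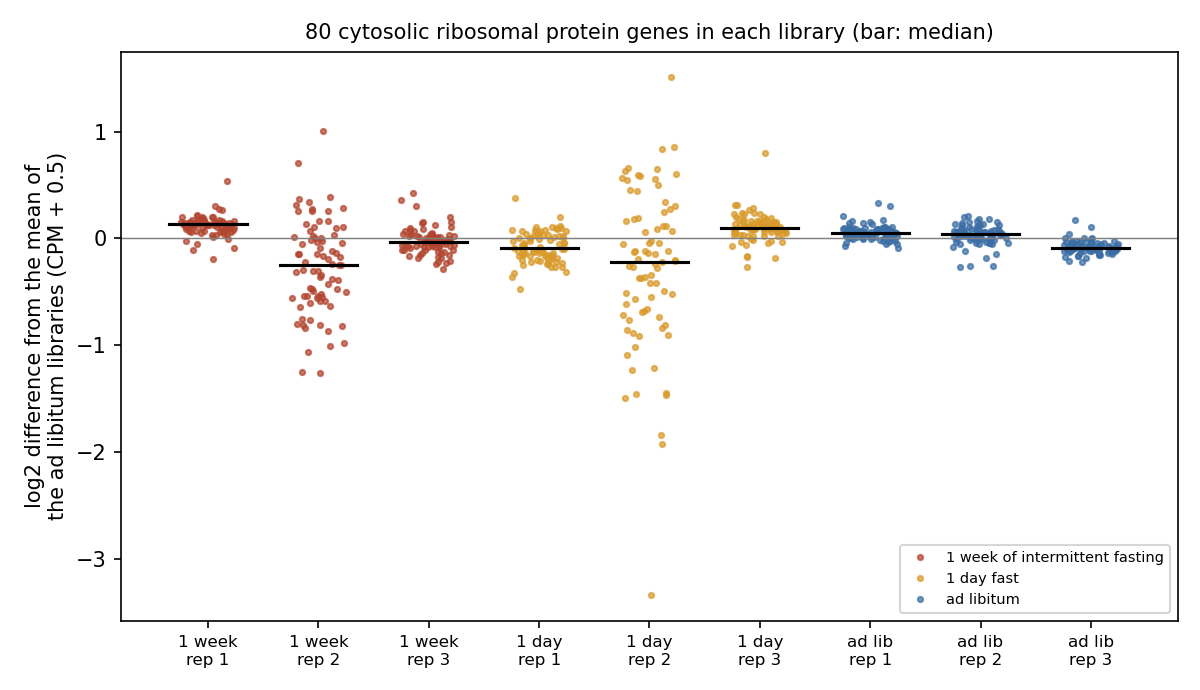
Each point is 1 of the 80 ribosomal protein genes in 1 library, drawn as the log2 difference of its CPM (plus 0.5) from the mean of the 3 ad libitum libraries, and bars are medians. In 7 libraries the points form a narrow band, while in replicate 2 of the 1 week group and replicate 2 of the 1 day group they spread in both directions, to -1.26 and -3.34 at the low end.

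The spread between libraries was not even. In the 7 libraries other than the 2 that stood apart, the 75 genes with a mean of 10 CPM or more had a median coefficient of variation of 7.63%, against 8.40% for 10040 other protein-coding genes at that level. Over all 9 libraries it was 15.1%, against 12.2%. In replicate 2 of the 1 week group 19 of the 80 genes lay more than 1.5-fold from the ad libitum mean, and in replicate 2 of the 1 day group 32 did. In the other 7 libraries the number was 0, except for 1 gene in replicate 3 of the 1 day group. The width of the middle 50% of log2 differences was 0.57 and 0.88 in the libraries that stood apart and 0.064 to 0.20 in the others. For other protein-coding genes with a mean of 10 CPM or more this width was 0.37 and 0.58 in the same libraries and 0.11 to 0.26 in the others. Ribosomal protein genes thus varied little between the 7 libraries, about as little as other genes. In the other 2 both sets spread more widely, the ribosomal protein genes more so.

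Without those 2 libraries, 0 of the 80 genes were called in any comparison by edgeR, where 0.341% of all genes were called after 1 week, 0.243% after 1 day and 0% between 1 week and 1 day. The medians were then 0.053 after 1 week (65 of 80 above 0), 0.0069 after 1 day (45 of 80 above 0) and 0.044 between 1 week and 1 day (59 of 80 above 0), so the sign of the median against ad libitum changed in both comparisons. The lowest fold change after 1 week was then -0.11 on the log2 scale, and the 95% interval lay within 1.5-fold of no change for 76 of 80 genes after 1 week, 76 after 1 day and 75 between 1 week and 1 day. At an unadjusted p below 0.05 there were 0, 1 and 1 of 80 in this order, where 14.6%, 10.5% and 9.14% of all genes were. The 2 genes were Rps14 after 1 day (log2 fold change 0.26, SE 0.11, adjusted p = 0.475) and Rpl29 between 1 week and 1 day (0.22, SE 0.078, adjusted p = 0.514).

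**Figure D2:**
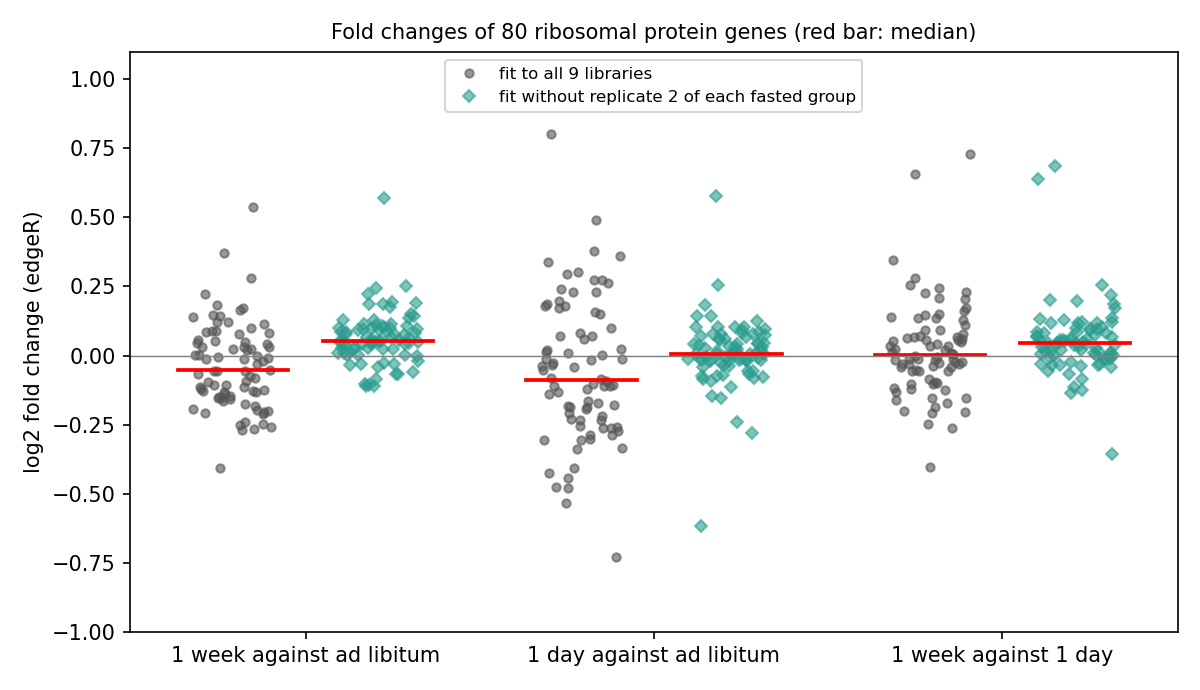
Points are the edgeR log2 fold changes of the 80 genes in each comparison, fitted to all 9 libraries (circles) or without replicate 2 of the 1 week and 1 day groups (diamonds), and red bars are medians. The diamonds lie closer together than the circles, and the median after 1 week is -0.053 in the first fit and 0.053 in the second.

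Among small subunit genes, Rps14, whose loss in human marrow cells causes a failure of red cell formation, had the largest positive value against ad libitum. Its level was 178, 295 and 169 CPM in the 1 week group, 191, 419 and 161 CPM in the 1 day group, and 138, 166 and 138 CPM in the ad libitum group. The 3 libraries of the 1 week group all lay above the ad libitum libraries, the 1 day group overlapped with them, and the highest value of each fasted group was its replicate 2. The log2 fold change was 0.54 after 1 week (SE 0.36, edgeR adjusted p = 0.641) and 0.80 after 1 day (SE 0.36, adjusted p = 0.542), and without both libraries that stood apart it was 0.25 and 0.26. Rps18, a protein of the subunit head that contacts the large subunit, was the 1 gene with an unadjusted p below 0.05 after 1 day in the fit to all libraries. It was at 77.8, 84.6 and 76.0 CPM after 1 week, 68.7, 108 and 81.8 CPM after 1 day and 65.5, 72.0 and 67.0 CPM under ad libitum feeding. The 1 week libraries lay above all ad libitum libraries and the 1 day libraries overlapped with them. The log2 fold changes were 0.22 after 1 week (SE 0.15, adjusted p = 0.643) and 0.34 after 1 day (SE 0.15, unadjusted p = 0.0463, adjusted p = 0.533). With both libraries that stood apart left out, the value after 1 day was 0.14 (SE 0.091, adjusted p = 0.623).

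Rps2, at the entry of the mRNA channel, had the smallest p of the 80 genes after 1 week and a change of small size. It was at 205, 207 and 204 CPM after 1 week, 199, 200.2 and 189 CPM after 1 day and 176, 203 and 177 CPM under ad libitum feeding, so that the 1 week libraries lay above all others by a narrow margin. The log2 fold change after 1 week was 0.15 (95% interval -0.059 to 0.35, adjusted p = 0.616). Rps6, the protein that S6 kinases phosphorylate downstream of mTORC1, was at 230.3, 196 and 209.9 CPM after 1 week, 215, 200.3 and 231 CPM after 1 day and 229.6, 231 and 206 CPM under ad libitum feeding. These groups overlapped, and the log2 fold changes were -0.066 (SE 0.10) after 1 week and -0.043 (SE 0.10) after 1 day, or -0.0024 and 0.0079 without both libraries that stood apart. Rps6 alone was lowest in those libraries. Summed with its copy (below) it was at 223 CPM (1 week) and 264 CPM (1 day) there, against 206 to 231 CPM in the others. Rpsa, also known as a laminin receptor, averaged 255 ± 25.7 CPM after 1 week, 264 ± 21.6 CPM after 1 day and 285 ± 14.8 CPM under ad libitum feeding (SD, n = 3 each), with a log2 fold change of -0.16 after 1 week (SE 0.11, adjusted p = 0.635), or -0.11 without those libraries.

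Other small subunit genes also showed no difference past the test. Rps3, at the entry of the mRNA channel, was at 188, 212 and 172 CPM after 1 week, 179, 266 and 178 CPM after 1 day and 175, 195 and 157 CPM under ad libitum feeding. Rps27a, which is made as a fusion with ubiquitin, was at 115, 115 and 102 CPM after 1 week, 101, 133 and 124 CPM after 1 day and 108, 106 and 102 CPM under ad libitum feeding. For both the groups overlapped, with log2 fold changes of 0.12 (SE 0.17) and 0.078 (SE 0.11) after 1 week and 0.24 (SE 0.17) and 0.18 (SE 0.11) after 1 day. Without both libraries that stood apart, Rps3 was at 0.047 after 1 week and 0.026 after 1 day, and Rps27a at 0.061 and 0.094. Rps28 averaged 74.0 ± 15.3 CPM after 1 week, 69.4 ± 11.5 CPM after 1 day and 72.0 ± 4.93 CPM under ad libitum feeding (SD, n = 3 each).

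Groups that do not overlap were few. After 1 week 4 genes lay above all ad libitum libraries, Rps14, Rps18, Rps2 and Rps4x, where 10.9% of all genes did, and 0 lay below, where 11.5% of all genes did. After 1 day 2 genes lay above, Rpl10 and Rpl4 (8.17% of all genes), and 3 lay below, Rps27l, Rpl12 and Rpl29 (10.3%). Between 1 week and 1 day Rps2 alone lay above (4.5%) and 0 lay below (3.28%). These shares of 80 lie below those of all genes in every case. Most counts of Rpl10 and Rpl12 are listed under copies in most libraries (below). Summed with its copies, Rpl10 was at 111.6, 49.6 and 151.2 CPM after 1 day and 150.8, 137.9 and 133.8 CPM under ad libitum feeding. Rpl12 with its copy was at 78.2, 46.3 and 91.9 CPM and 89.7, 90.6 and 79.1 CPM. With copies added, the groups thus overlapped for these genes.

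Among large subunit genes, Rpl3, which lies near the site where peptide bonds form, was at 386, 342 and 335 CPM after 1 week, 345, 384 and 416 CPM after 1 day and 349, 342 and 314 CPM under ad libitum feeding. The groups overlapped, and the log2 fold changes were 0.081 (SE 0.11) and 0.19 (SE 0.11). Rpl13a, which in human cells also takes part in silencing of inflammatory mRNAs, averaged 270.3 ± 39.7 CPM after 1 week, 274 ± 44.1 CPM after 1 day and 238 ± 28.2 CPM under ad libitum feeding (SD, n = 3 each), and its log2 fold change after 1 week was 0.18 (SE 0.15, adjusted p = 0.714), or 0.078 without both libraries that stood apart. Rpl11, which with Rpl5 can bind the p53 regulator Mdm2 when ribosome assembly is disturbed, averaged 99.2 ± 13.9, 102 ± 9.48 and 103 ± 4.35 CPM in the same order. Rpl23 was at 99.1, 107 and 90.3 CPM after 1 week, 93.5, 139 and 98.5 CPM after 1 day and 93.7, 87.1 and 87.7 CPM under ad libitum feeding, with overlap between the 1 day and ad libitum libraries and a log2 fold change after 1 day of 0.30 (SE 0.15, adjusted p = 0.544). With both libraries that stood apart left out, the value was 0.10. Rpl35 had a log2 fold change of 0.29 after 1 day (SE 0.16, adjusted p = 0.562), or 0.12 without those libraries. Between 1 week and 1 day the small subunit gene Rps15a was at -0.15 (SE 0.12) and the large subunit gene Rpl9 at -0.17 (SE 0.16), both with an adjusted p = 0.854 (edgeR). Rpl41, Rpl38, Rpl39 and Rplp2 had log2 fold changes between -0.032 and 0.087 after 1 week and between -0.092 and 0.071 after 1 day, and without those libraries between 0.0076 and 0.11 and between -0.019 and 0.10. None of these large subunit genes differed beyond the spread of its libraries.

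Paralogs with restricted or stress-linked expression stayed low. Rps27l, a p53-induced paralog of Rps27, was at 4.78, 3.57 and 4.71 CPM after 1 week, 3.99, 2.87 and 4.50 CPM after 1 day and 6.01, 4.57 and 4.87 CPM under ad libitum feeding. The 1 day libraries lay below all ad libitum libraries, and the log2 fold change after 1 day was -0.44 (SE 0.21, adjusted p = 0.544), or -0.28 without both libraries that stood apart. Rpl3l had a log2 fold change of -0.73 after 1 day (SE 0.39, adjusted p = 0.562) and of -0.0010 after 1 week (SE 0.37), at levels of 0.207 to 0.559 CPM over all libraries, which are 8 to 31 counts. Rps4l, which GENCODE M21 lists as a pseudogene, was at 13.2 to 20.3 CPM, with log2 fold changes of 0.12 after 1 week (SE 0.16, or 0.25 without those libraries) and -0.015 after 1 day (SE 0.16).

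**Figure D3:**
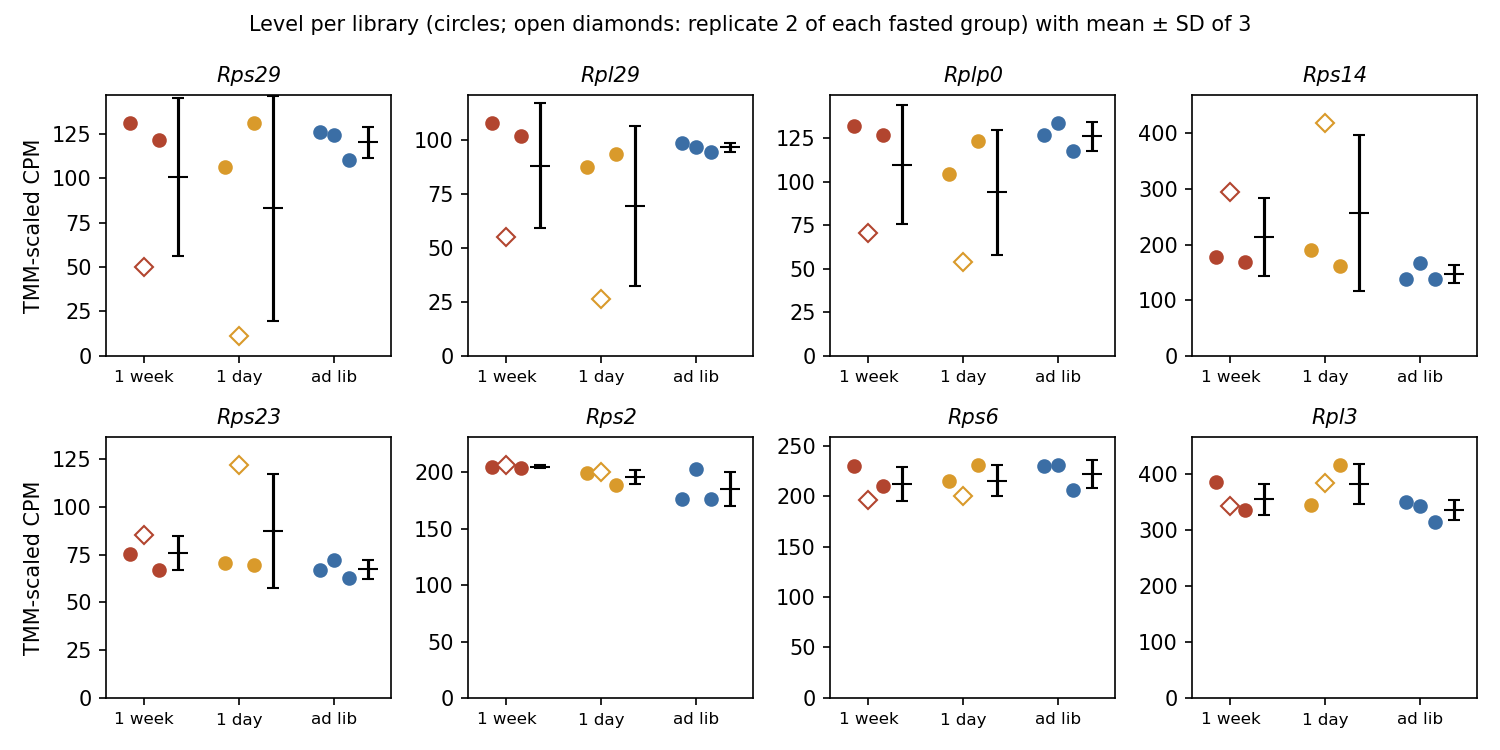
Levels in TMM-scaled CPM of 8 ribosomal protein genes in each library, with mean ± SD of the 3 libraries to the right of each group and open diamonds for replicate 2 of the 1 week and 1 day groups. In the panels of Rps29, Rpl29, Rplp0 and, by a smaller margin, Rps6 the diamonds are the lowest points. In those of Rps14 and Rps23 they are the highest of their group, and in that of Rpl3 they lie among the other points.

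The 2 libraries that stood apart moved the same ribosomal protein genes in the same direction. Each was set against the other 2 libraries of its own group, so that the values share no library. The lowest gene in both was Rps29, a small zinc-binding protein of the small subunit head. It was at 131, 49.9 and 122 CPM after 1 week, 107, 11.4 and 131 CPM after 1 day and 126, 124 and 110.0 CPM under ad libitum feeding, and its 11.4 CPM in replicate 2 of the 1 day group came from 442 counts. On the log2 scale (CPM plus 0.5) it lay 1.33 below the other libraries of its group in replicate 2 of the 1 week group and 3.32 below in replicate 2 of the 1 day group. Rpl29 was at 108, 55.0 and 102 CPM after 1 week, 87.8, 26.6 and 93.8 CPM after 1 day and 98.7, 97.0 and 94.7 CPM under ad libitum feeding. Rplp0, the base of the stalk and a common reference gene for quantitative PCR, was at 132, 70.4 and 127 CPM after 1 week, 104, 54.2 and 123 CPM after 1 day and 127, 134 and 118 CPM under ad libitum feeding. Rps21, Rpl27, Rpl13, Rpl26 and Rps19, the gene mutated most often in human Diamond-Blackfan anaemia, were also lower in both.

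A smaller number were higher in both. Next to Rps14, the largest values in the 1 day library were those of Rps23, a protein of the decoding centre, at 75.4, 85.1 and 67.0 CPM after 1 week, 70.5, 122 and 69.6 CPM after 1 day and 66.9, 72.4 and 62.5 CPM under ad libitum feeding, and Rps16, at 82.2, 89.1 and 70.8 CPM, 74.2, 134 and 79.5 CPM and 76.4, 78.1 and 69.2 CPM in the same order. In the 1 week library the largest value next to Rps14 was that of Rpl10, at 0.71 on the log2 scale. Summed with its copies, however, Rpl10 was lowest in both libraries that stood apart (below). Of the 80 genes 54 were lower in both libraries, 18 were higher in both and 8 moved in opposite directions. Across the 80 genes, which are not independent replicates, the deviations had a Pearson r of 0.84 and a Spearman rho of 0.89. Across 10355 other genes with a mean of 10 CPM or more these were 0.51 and 0.56. A fall to 50% or less was present in 5 of the 80 genes in the 1 week library (6.25%) and 11 in the 1 day library (13.8%), against 0.966% and 2.83% of the other genes.

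The deviations went with transcript length among ribosomal protein genes. Spearman's rho with the length of the GENCODE M21 transcript was 0.32 in the 1 week library and 0.41 in the 1 day library over the 80 genes, and 0.054 and 0.033 over other genes. The 16 genes with transcripts under 500 bases and a mean of 10 CPM or more had a median log2 difference from the ad libitum mean of -0.43 and -0.51 in these libraries, and 48 other protein-coding genes under 500 bases had medians of -0.19 and -0.22. In the other fasted libraries the medians lay between -0.11 and 0.12 for the 16 genes and between -0.094 and -0.054 for the 48. With GC content rho was -0.0054 and -0.18 over the 80 genes, and -0.12 and -0.48 over other genes. The lengths rest on a choice of transcript per gene, which for Rps20 and Rps3 took unusually long ones of 3706 and 1908 bases.

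**Figure D4:**
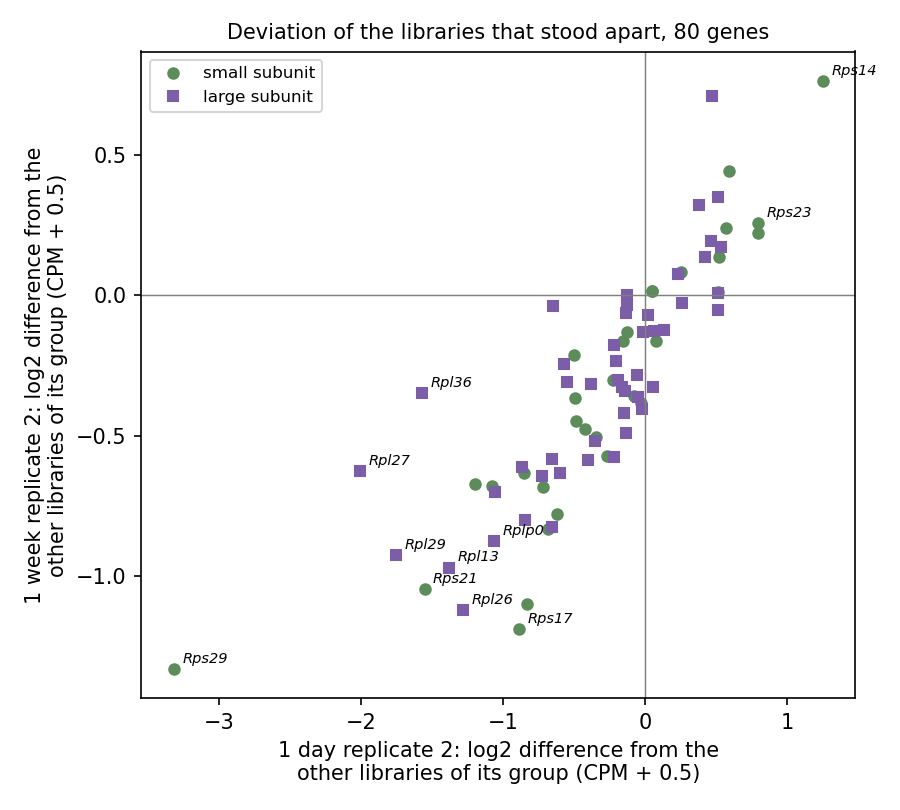
Each point is 1 of 80 genes. The axes give the log2 difference (CPM plus 0.5) of replicate 2 of the 1 day group (x) and replicate 2 of the 1 week group (y) from the other libraries of its own group. Points run from Rps29 at the lower left (-3.32 and -1.33) to Rps14 at the upper right (1.25 and 0.76), and 54 of 80 lie in the lower left quadrant.

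Many ribosomal protein genes have processed copies elsewhere in the genome, and the deposited table lists counts for them. By sequence, 56 such entries matched 35 of the 80 genes (blastn identity of 80% or more over at least 200 bases and 50% of the copy, and a pseudogene type or a symbol that begins with Rpl or Rps). Gm2000, listed as protein-coding and 99.6% identical to Rpl35, and Cenpq, which matches Rps12 at 82.4%, meet the sequence limits but not the last condition and were not counted. Reads that match both a gene and its copy are shared out by Salmon's model, which leaves the split uncertain and the sum firmer. Over the coding sequence, Rps6 and Rps6-ps4 had 0 mismatches in 747 bases, Rpl5 and Gm15500 0 in 891, Rps27 and Rps27rt 0 in 252 and Rpl12 and Gm10275 0 in 495, while Rps7 and Rps7-ps3 had 3 in 582 and Rpl14 and Rpl14-ps1 4 in 648. A stretch of 70 coding bases from the gene and its copy is shown for these last pairs (GENCODE M21 transcripts, 5′ to 3′, counted from the first base of the start codon), with the bases that differ in capitals. They show how few letters tell reads of the gene from reads of the copy over coding bases. The alignment covered 77.1% of the transcript picked for Rps7 and 65.0% of that for Rpl14, and bases outside it can also tell them apart. The Rps7 stretch runs from coding base 1 to 70 and the Rpl14 stretch from 354 to 423. Rps7 lies on chromosome 12 with its copy on the X, and Rpl14 on chromosome 9 with its copy on chromosome 7.
Rps7: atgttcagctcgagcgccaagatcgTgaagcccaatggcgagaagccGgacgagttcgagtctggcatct
Rps7-ps3: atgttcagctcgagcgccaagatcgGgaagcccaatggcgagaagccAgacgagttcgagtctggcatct
Rpl14: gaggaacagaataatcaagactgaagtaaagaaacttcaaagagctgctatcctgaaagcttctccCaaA
Rpl14-ps1: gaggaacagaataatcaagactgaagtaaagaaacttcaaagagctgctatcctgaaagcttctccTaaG

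Copies held 10.7% and 11.7% of the summed counts of the 80 genes and their copies in the 1 week and 1 day libraries that stood apart, and 7.66% to 8.08% in the other 7. For Rpl14 the copy held 3.88%, 39.1% and 2.98% after 1 week, 14.6%, 46.0% and 0.509% after 1 day and 0%, 7.64% and 0.686% under ad libitum feeding. Summed with its copy, Rpl14 was at 159.7, 130.2 and 133 CPM after 1 week, 139, 160.3 and 158 CPM after 1 day and 149.9, 149 and 133 CPM under ad libitum feeding, where the gene alone had 79.2 and 86.6 CPM in the libraries that stood apart. Rps12 had 41.8% and 48.2% of its counts on a copy in these libraries, against 10.1% to 13.5% in the others. Some genes went the other way. For Rpl10, a protein added late in assembly of the large subunit, copies held 59.0% and 42.7% in these libraries and 81.8% to 87.1% in the others, and for Rpl27a 30.5% and 5.51%, against 50.2% to 57.6%. Summed with its copies, Rpl10 was at 76.5 and 49.6 CPM in these libraries, against 112 to 151 CPM in the others. The sum for Rpl27a was 88.9 and 80.5 CPM, against 101 to 117 CPM. The gene alone was higher there in both cases.

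Copies also took most counts of a few genes in every library. Gm15500 held 84.7% to 92.1% of the sum for Rpl5, Gm10275 85.7% to 92.2% for Rpl12 and Rps27rt 82.3% to 96.1% for Rps27. Rpl5 alone averaged 17.3 ± 1.70 CPM after 1 week, 18.8 ± 3.43 CPM after 1 day and 17.9 ± 3.70 CPM under ad libitum feeding (SD, n = 3 each), while the sum with its copy was 135, 179 and 132 CPM after 1 week, 129, 250.9 and 141 CPM after 1 day and 144, 138 and 129 CPM under ad libitum feeding. How far the low listed levels of Rpl5, Rpl12 and Rps27 come from the split of reads between gene and copy was not tested. Rps29 and Rps14, the extremes of the libraries that stood apart, had no copy in the table by the rule used. That rule cannot find a copy that matches over fewer than 200 bases, so shorter copies of small genes such as Rps29 would be missed. With the copies added to their genes, 0 of the 80 were called in any comparison, and the medians were -0.015 after 1 week, -0.083 after 1 day and -0.0093 between 1 week and 1 day.

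**Figure D5:**
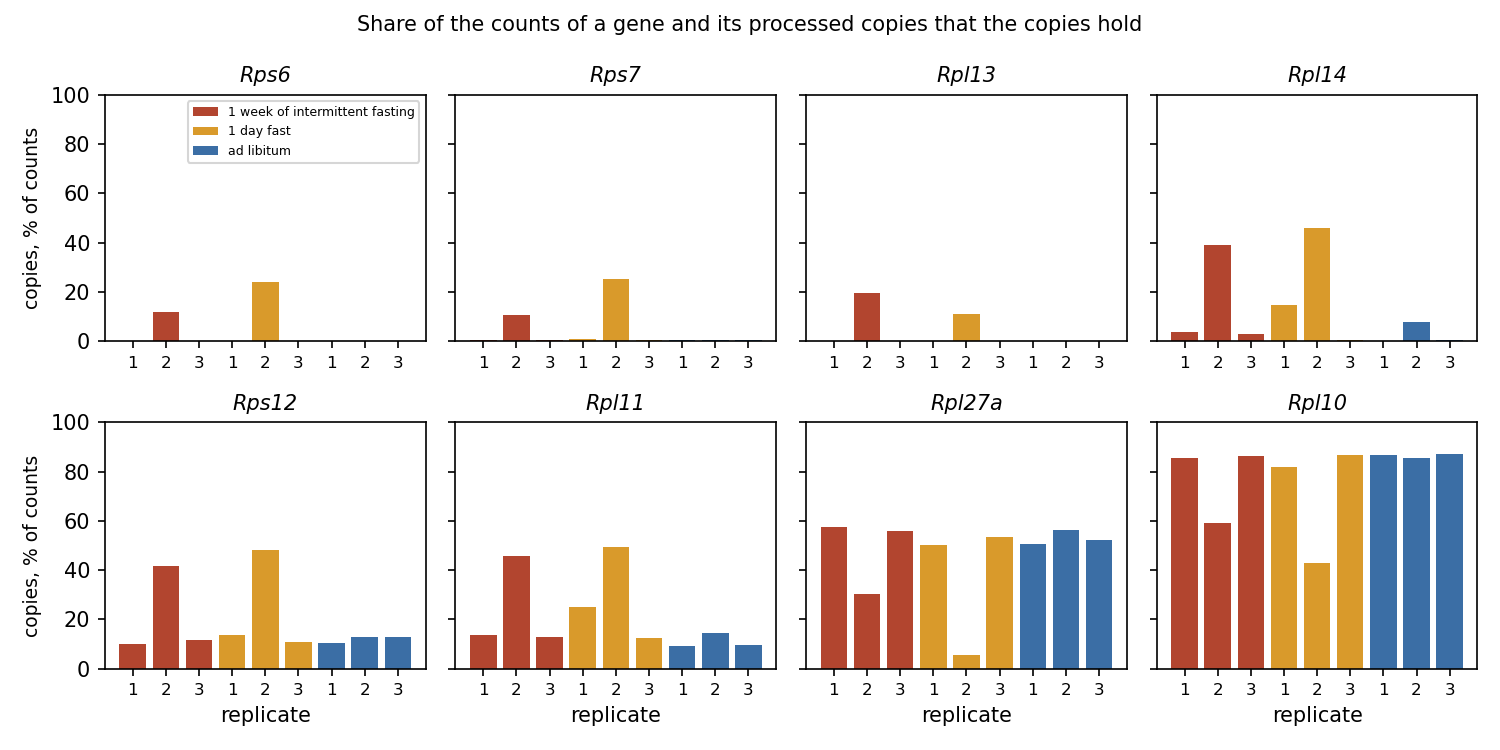
Bars give, for 8 genes and each library, the percentage of the counts of the gene and its copies together that is listed under the copies, by replicate number within each group. For Rps6, Rps7 and Rpl13 the bars of replicate 2 of the 1 week and 1 day groups stand above values at or near 0, and for Rpl27a and Rpl10 the same libraries are the lowest.

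Other genes of the translation machinery were taken from lists by role. Of 19 elongation factors and other TOP mRNAs, of 38 initiation factors, of 54 ribosome biogenesis genes, of 9 host genes of small nucleolar RNAs and of 78 mitochondrial ribosomal proteins, 0 passed edgeR's test in any of the 3 comparisons. DESeq2 and limma's voom also called 0. In the order of these lists, 1, 1, 4, 0 and 4 genes had an unadjusted p below 0.05 after 1 week and 5, 3, 5, 4 and 4 after 1 day, and 2 biogenesis genes did between 1 week and 1 day. The shares of all genes were 11.2% after 1 week, 9.27% after 1 day and 5.22% between them. The 5 of 19 TOP mRNAs and 4 of 9 host genes after 1 day were 3 and 2 without both libraries that stood apart, where 10.5% of all genes were. Mitochondrial ribosomal proteins had a median log2 fold change of -0.14 after 1 week (66 of 78 below 0) and -0.11 after 1 day (58 of 78 below 0), and of -0.094 and -0.083 without those libraries. Mrpl3 was at 34.4, 33.3 and 36.3 CPM after 1 week, 33.7, 37.4 and 39.8 CPM after 1 day and 44.1, 40.1 and 41.7 CPM under ad libitum feeding, so that every fasted library lay below every ad libitum library (1 week log2 fold change -0.28, SE 0.099, adjusted p = 0.331). Of 83 genes of oxidative phosphorylation 0 passed, with medians of -0.11 after 1 week and -0.13 after 1 day, or -0.047 and -0.11 without those libraries. An unadjusted p below 0.05 was present in 2 of them after 1 week, 8 after 1 day (16 without those libraries) and 2 between 1 week and 1 day. Of 13 mitochondrially encoded genes and 6 nuclear-retained RNAs 0 passed by any of the 3 tools. In each comparison 0 of the 13 mitochondrially encoded genes and 1 of the 6 nuclear-retained RNAs had an unadjusted p below 0.05. Without both libraries that stood apart it remained 0 of the 13. Of the 6 it was then 1 after 1 week, 2 after 1 day and 3 between them, where 14.6%, 10.5% and 9.14% of all genes were. Against ad libitum 12 of the 13 were below 0 in each comparison, with medians of -0.63 after 1 week and -0.54 after 1 day. Leaving out those libraries gave medians of -0.30 and -0.22, with 11 and 12 below 0.

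TOP mRNAs that encode no ribosomal protein had a median of 0.059 after 1 week and 0.21 after 1 day, and of 0.023 and 0.075 without both libraries that stood apart. The largest value was that of Eif4b, an initiation factor that stimulates the helicase Eif4a. It was at 303, 362 and 272 CPM after 1 week, 309, 437 and 312 CPM after 1 day and 235, 249.7 and 229.7 CPM under ad libitum feeding. Every fasted library lay above every ad libitum library, and the log2 fold changes were 0.39 after 1 week (SE 0.16, adjusted p = 0.383) and 0.57 after 1 day (SE 0.16, adjusted p = 0.373), or 0.28 and 0.39 without those libraries (adjusted p = 0.181 and 0.136). Of the 19 genes, 14 were above 0 and 5 below in each of these comparisons. The lowest value in both was that of Tpt1. It was at 183, 163 and 180 CPM after 1 week and 168, 125 and 187 CPM after 1 day. All lay below the ad libitum libraries, at 211, 198 and 207 CPM. The log2 fold changes of Tpt1 were -0.23 after 1 week (edgeR adjusted p = 0.601) and -0.36 after 1 day (adjusted p = 0.516). Without those libraries they were -0.17 and -0.21. Among the small nucleolar RNA hosts, whose spliced RNAs also begin with TOP tracts, Gas5 was at 69.4, 87.3 and 64.2 CPM after 1 week, 73.6, 117 and 67.1 CPM after 1 day and 65.9, 59.6 and 59.9 CPM under ad libitum feeding. Its highest values were in the libraries that stood apart. The median of the 9 hosts was 0.25 after 1 week and 0.30 after 1 day, and 0.12 and 0.19 without those libraries.

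Of 28 genes of mTORC1 signalling and TOP mRNA control, 1 rose in edgeR's test after 1 week (0.307% of all genes were called) and the same 1 after 1 day (0.0584%). This was Ddit4, an inhibitor of mTORC1 induced by glucocorticoids and by low energy. It was at 100.5, 161 and 130.0 CPM after 1 week, 117, 96.9 and 79.7 CPM after 1 day and 37.4, 42.3 and 34.7 CPM under ad libitum feeding. Every fasted library lay above every ad libitum library. The log2 fold change was 1.78 after 1 week (SE 0.19, adjusted p = 0.00663) and 1.36 after 1 day (SE 0.19, adjusted p = 0.0478). The call after 1 week was lost without ad libitum replicate 1 or 3 (adjusted p = 0.0719 and 0.0604). The call after 1 day was lost without any 1 of the ad libitum or 1 day libraries or without 1 week replicate 3, with adjusted p between 0.0766 and 0.326, without both libraries that stood apart (0.0560, and 0.0562 with copies added as well), with a filter of 1 CPM in at least 6 libraries (0.0552) and with replicate number as a block (0.0730). The other 27 genes of this list did not pass, among them Eef2k, the kinase that slows elongation (log2 fold change 0.33 after 1 week, adjusted p = 0.200, and 0.28 after 1 day, adjusted p = 0.466). DESeq2 called 4 of the 28 after 1 week (2.26% of all genes), namely Ddit4, Castor1, Eef2k and Mxd4, and Ddit4 alone after 1 day (0.896%), while limma's voom called 3 (1.44%) and 1 (0.453%). Without both libraries that stood apart edgeR called 2 of the 28 after 1 week (0.341% of all genes), Ddit4 and Mxd4, a transcriptional repressor (log2 fold change 0.80, adjusted p = 0.0381, against 0.81 with adjusted p = 0.122 in the fit to all libraries). Between 1 week and 1 day 0 of the 28 passed by any of the 3 tools. In edgeR an unadjusted p below 0.05 was present in 6 of the 28 after 1 week, 6 after 1 day and 4 between them. The shares of all genes were 11.2%, 9.27% and 5.22%. Without both libraries that stood apart the counts were 7, 6 and 2, where 14.6%, 10.5% and 9.14% of all genes were.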

How the data were processed

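Per gene and library, the deposited values are estimated counts in whole numbers, used as they stand. The submitters' processing notes name Salmon, DESeq2 1.40.2 and the builds GRCm39 and mm39. The sources used here do not give the Salmon version, the annotation release or the step from transcripts to genes. Per the labels, libraries were made with a directional kit. Any pair of libraries differed by a chi-square of at least 26.5 per gene, so none is a copy of another.

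The main test was the robust quasi-likelihood F test (two-sided) of edgeR 4.0.16, run under R 4.3.3 with TMM factors and filterByExpr (minimum count of 10, minimum total of 15) in 1 fit to all 9 libraries, with Benjamini-Hochberg adjustment over the 20535 genes left and a threshold of 0.05. Intervals of 95% use the fit's total degrees of freedom, and log2 differences between libraries add 0.5 to the CPM. DESeq2 1.42.0, limma 3.58.1 and further alternatives are described below. The fitting steps were tested on simulated data. Transcript lengths, types and sequences come from GENCODE M21 (GRCm38), matched by gene ID, with the shortest complete principal transcript of each gene, and promoters from RefSeq (GRCm38.p6). No coordinates of the authors' build are printed. Copies were found with blastn 2.17.0. The copy rule and the choice of transcript were revised after values had been seen, because the first copy rule missed copies named after their gene and the longest transcripts were often unusual isoforms.

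The genes, lists and tests were chosen with earlier results of these data known. Genes named come from the 8 with the smallest p in each comparison, the extremes of level, a set list of well-known members and paralogs, and up to 4 genes per other list. Genes named for their values in the libraries that stood apart or for their copies were picked after those values were seen. The list of other cytosolic ribosome components is not reported here.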

Additional observations from a re-analysis of the deposited data

Results flagged for a closer look

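In all, 6 of the 56 copies, whose counts enter the copy shares but not the main comparisons, were at 0 in every ad libitum library and above 3 counts in a fasted library. Rps6-ps4 had 985 counts in replicate 2 of the 1 week group and 2479 in replicate 2 of the 1 day group, and Gm12918, a copy of Rpl13, had 946 and 373 in the same libraries. Rps7-ps3 had 323 counts in replicate 2 of the 1 week group, and 13 and 802 in replicates 1 and 2 of the 1 day group. Rps13-ps2 had 140 and 113 counts in the replicates 2 of the 1 week and 1 day groups. Rpl19-ps11 and Rpl10-ps1 had 492 and 230 counts in replicate 2 of the 1 day group alone. All but the 13 counts of Rps7-ps3 lie in the 2 libraries that stood apart, which are both from fasted groups. Whether these counts go with fasting or with those 2 libraries cannot be told apart and was not tested. The division of reads between each copy and its gene is uncertain, and its part in these values was not tested.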

How the results depend on the processing

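The count of called genes was 0 of 80 in all 3 comparisons under each of 19 alternatives: DESeq2, RLE size factors, no filter, 1 CPM in at least 6 libraries, the 6 libraries of a comparison, voom weights, each library left out, both libraries that stood apart left out, the replicate block, and 2 chosen after seeing the data that add copies to their gene. Over these alternatives the median of the 80 genes lay between -0.13 and 0.054 after 1 week, -0.17 and 0.0069 after 1 day and -0.11 and 0.13 between 1 week and 1 day. Nothing in the labels pairs libraries by replicate number, and same-numbered deviations correlated between -0.20 and 0.44 over all genes. Over the 80 genes the same-numbered 1 week and 1 day libraries correlated at 0.52, 0.84 and 0.63, but unequal numbers reached 0.84 as well (1 week replicate 1 with 1 day replicate 3). With the replicate block edgeR called 32, 2 and 0 of all genes after 1 week, after 1 day and between them, and 0 of the 80. Some named values, none past the test, changed sign. Between 1 week and 1 day Rps16 ranged between -0.40 and 0.076 with 1 library left out at a time (the highest without 1 day replicate 2) and was at 0.0027 without both libraries that stood apart and 0.0012 with copies added as well, and Rpl30 at 0.010 and 0.0090 in the last 2 settings. With copies added, Rpl36a was at 0.025 and Rpl10 at -0.29 after 1 week, and Rps27 at 0.098 and Rpl27a at 0.055 between 1 week and 1 day. With copies added and both libraries left out, Rpl12 was at 0.020, Rpl36a at 0.068 and Rpl10 at -0.060 after 1 week, and Rps27 at 0.081 and Rpl27a at 0.031 between 1 week and 1 day. The summed level of ad libitum replicate 2 was 8089 CPM without TMM scaling. The cause of these changes was not tested. With 3 libraries a group and a median SE of 0.17, changes under 1.5-fold were not detectable for many genes.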
